A study of Danio rerio with 10 samples.

Results

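The pectoral fin bud of the zebrafish at 48 hpf (hours post fertilization) was described here from the WT libraries alone. An inventory was made of the transcription factors, ligands, receptors and extracellular matrix genes detected in the sorted cells. Marker genes of other tissues, such as skeletal muscle fibres and notochord, were detected too. Class shares and ranks are therefore those of the sorted cells as a whole. Members were taken by gene symbol from 95 families, which gave 955 transcription factors, 327 ligands, 256 receptors and 187 matrix genes, or 1725 of the 32520 genes in the table. A member was called expressed when it had at least 10 counts in both WT libraries. This held for 1413 of the 1725 members (81.9%), against 18289 of the 32520 genes of the whole table (56.2%).

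The pectoral fin bud is the fish counterpart of the forelimb bud. It has a core of mesenchyme, in which Tbx5 and Fgf10 start outgrowth and Hox and Hedgehog genes set up its axes, and a covering epidermis whose distal rim becomes the apical fold, a source of Fgf signals. By the second day the mesenchyme also lays down cartilage, while muscle precursors enter the bud from the somites. Fibrils called actinotrichia stiffen the fin fold.

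Both WT samples were RNA from EGFP-positive cells of *Tg(Mmu:Prx1-EGFP)* embryos on the AB strain. In this line an enhancer of the mouse *Prx1* gene drives EGFP in the pectoral fin, in the pharyngeal arches and in the dorsal head. The embryos came from intercrosses of *Tg(Mmu:Prx1-EGFP);prdm1a+/-* fish, and the study states, in its account of cartilage staining, that its WT measurements held heterozygotes, so that the WT pools may hold them. Head and arches were cut away before embryos were pooled, dissociated with enzyme and sorted, and the study states that some arch and dorsal head tissue may have remained. Each library came from pooled embryos, so that the spread between the 2 libraries is a spread between pools, and no genotype was compared.

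The libraries held 22865061 and 22008119 counts on genes in WT replicates 1 and 2. Of the genes with 1 to 9 counts, 81.8% in WT replicate 1 and 79.1% in WT replicate 2 had an even count, as would be seen if both mates of a read pair were counted. The options of the counting step are not known here. If both mates were counted, 10 counts stand for 5 pairs. A count of 0 allows up to 3 counts, which is 0.131 and 0.136 CPM (counts per 1000000 counts on genes), or 0.262 and 0.273 CPM if 3 pairs are allowed. Such limits cover counting error only. CPM also grows with the length of a transcript, and no lengths were used here. The rank of a gene is therefore its rank in reads, and levels of different genes were not compared as transcript numbers.

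The libraries stood well apart, and every value is given for each of them. Across the 18289 expressed genes of the table, CPM in one library followed CPM in the other (Spearman rho = 0.913 across genes, which are not independent replicates), with a median absolute log2 ratio of 0.47. A total of 427 genes (2.33%) were at least 4-fold higher in WT replicate 1, and 761 genes (4.16%) were at least 4-fold higher in WT replicate 2. In direction, 8917 of the 18289 genes were higher in WT replicate 1 and 9372 in WT replicate 2. With 1 library on each side no test was made. Mitochondrially encoded genes held 1.79% and 2.37% of the counts in WT replicates 1 and 2, and ribosomal protein genes 5.68% and 6.65%.

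The 5 genes given as markers of the fin bud were expressed in both libraries. *tbx5a*, the T-box gene that starts forelimb and pectoral fin formation, stood at 60.1 CPM in WT replicate 1 and at 78.5 CPM in WT replicate 2. *prrx1a*, a homeobox gene of limb mesenchyme and a zebrafish counterpart of the gene whose enhancer drives the transgene, had 255 and 232 CPM. *hand2*, a bHLH gene of the posterior bud, had 137 and 86.9 CPM, and *sall4*, a zinc finger gene linked to limb outgrowth, had 172 and 726 CPM. *col1a1a*, which encodes a chain of type I collagen, was the gene with the most reads in both libraries. Of these 5 genes, *sall4* was the one more than 4-fold apart, and *tbx5a* and *prrx1a* lay close together in both libraries.

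Of the 10 genes with the most reads in the table, *col1a1a* and *col2a1a* were members of the matrix class and 8 were members of no class. Translation factor gene *eef1a1l1* had 10048 and 9913 CPM, and *eef2b*, another of that kind, had 5948 and 6334 CPM. The cytoskeletal actin genes *actb2* (6691 and 7141 CPM) and *actb1* (5220 and 5272 CPM) and the chaperone gene *hspa8* (4978 and 5050 CPM) also differed little. *mt-co1*, a mitochondrial subunit of cytochrome c oxidase, had 6805 and 10001 CPM. *krt4*, a keratin of the outer epidermis, had 7035 and 7930 CPM. The table gives no descriptive name for *CABZ01074130.1*, which had 7955 and 3688 CPM.

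Matrix genes took the largest share of reads among the classes and differed most between the libraries. They held 15.5% of all counts in WT replicate 1 and 6.09% in WT replicate 2, and 173 of the 187 were expressed. Counting error on these shares was small, with 95% Wilson intervals no wider than 0.0210 percentage points on either side when 2 counts are taken as 1 pair. *col1a1a* alone had 984546 and 412605 counts, or 43059 and 18748 CPM. Its partners in type I collagen were also among the 8 highest, with 4803 and 2657 CPM for *col1a1b* and 3786 and 2396 CPM for *col1a2*. All 3 were higher in WT replicate 1, by less than 4-fold.

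Most collagen genes of cartilage ranked far higher in WT replicate 1 than in WT replicate 2. A list of notochord marker genes was also far higher there (2368 and 19.6 CPM). The part of notochord cells in the levels of these collagen genes was not tested. *col2a1a*, the main collagen gene of cartilage and of the notochord sheath, had 493375 counts in WT replicate 1 and 15122 in WT replicate 2. This was 21578 and 687 CPM, and it put the gene at rank 2 of the whole table in the first library and at rank 183 in the second. *col11a1a*, which encodes a chain of the type XI collagen found in the same fibrils, had 6850 and 669 CPM. *col9a1b*, for a type IX collagen that coats them, had 6204 and 65.7 CPM, a log2 ratio of -6.56 for WT replicate 2 over WT replicate 1, the most negative of all 1413 expressed members. *col2a1b*, a second type II collagen gene that is named here after its values were seen, was an exception in rank, with 3233 and 1380 CPM and rank 11 among matrix genes in WT replicate 1 and rank 6 in WT replicate 2. Of the 8 matrix genes with the most reads in each library, 4 were shared.

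Of the genes of the fin fold skeleton, *and1* and *and2* were high in both pools. The actinodins *and1* and *and2* encode proteins of the actinotrichia, and they stood seventh and eighth among matrix genes by the mean of both libraries. *and1* had 4390 and 1285 CPM and *and2* had 3521 and 1410 CPM. All 3 actinodin genes were expressed, and 1 of them was at least 4-fold higher in WT replicate 1, beside 2.33% of all expressed genes. This was *and3* (962 and 109 CPM), named after its values were seen.

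**Figure D1:**
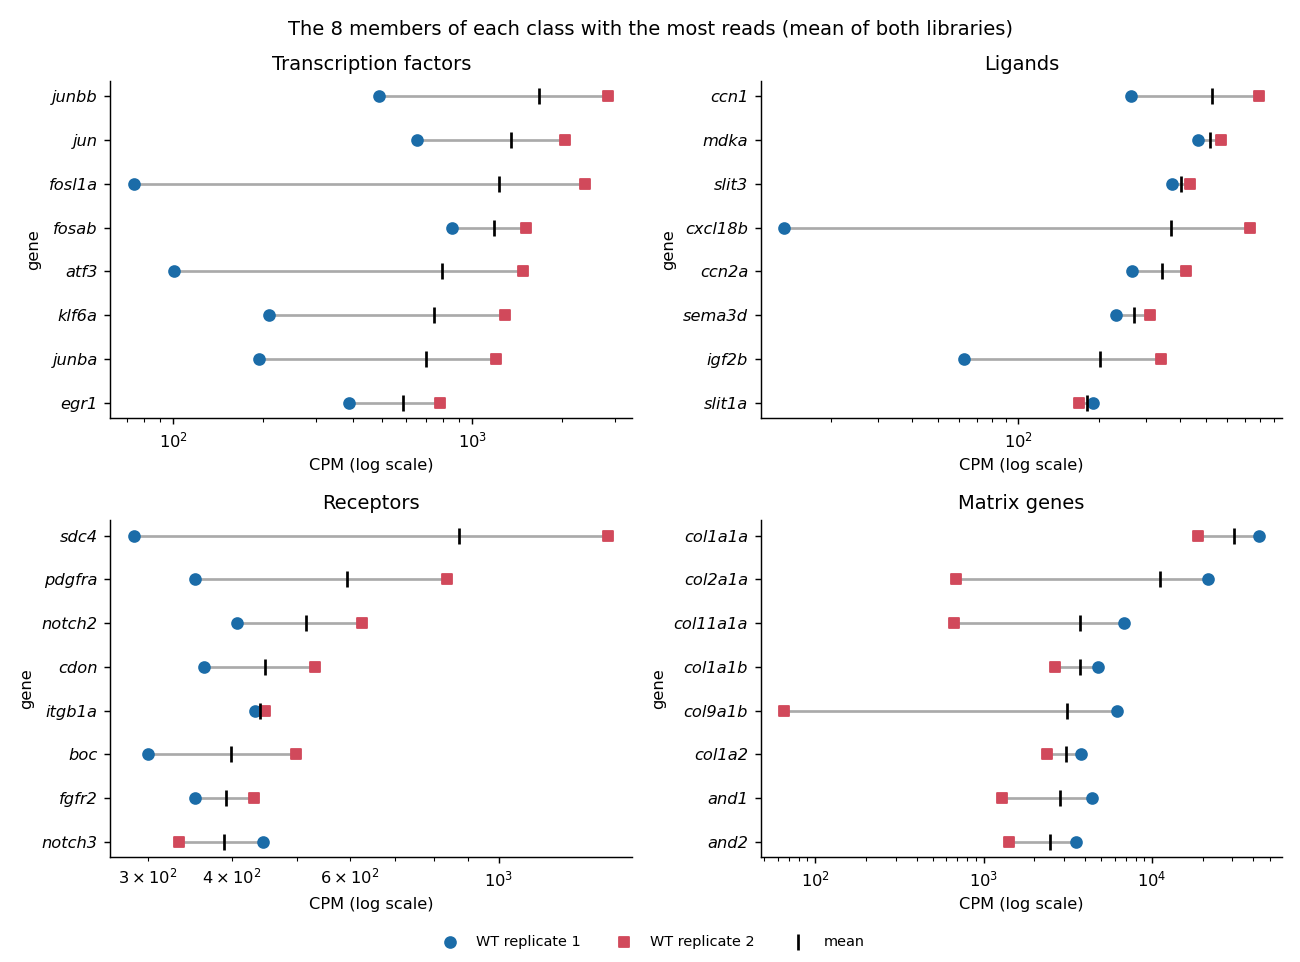
CPM (log scale) of the 8 transcription factors, ligands, receptors and matrix genes with the highest mean, with a blue circle for WT replicate 1, a red square for WT replicate 2 and a black bar for their mean. Among transcription factors each gene was higher in WT replicate 2, among matrix genes each was higher in WT replicate 1, and *itgb1a* (433 and 449 CPM) and *slit1a* (191 and 169 CPM) lay close together.

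Leading genes of several other matrix families lay close together in the libraries. *fbn2b*, a fibrillin of elastic microfibrils, had 1347 and 1260 CPM and led a family of 16 expressed genes with a median log2 ratio of -0.12 for WT replicate 2 over WT replicate 1. *nid2a*, which encodes a nidogen of the basement membrane, had 553 and 645 CPM. In the laminin, nidogen and perlecan family, 0 of the 18 expressed genes were 4-fold apart. Over all expressed genes, 2.33% were at least 4-fold higher in WT replicate 1 and 4.16% in WT replicate 2. A value of 0 in 18 is near these shares. *hmcn2*, a hemicentin gene whose mouse and zebrafish relatives hold epithelia to the tissue beneath, had 620 and 494 CPM. Its family of Fraser complex and hemicentin genes had a median log2 ratio of -1.37. Of its 9 genes 7 were higher in WT replicate 1, beside 8917 of all 18289 expressed genes. *emilin3a*, of the emilin glycoproteins, had 194 and 183 CPM. These 4 genes held similar levels in both pools.

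Several other families were led by genes that were higher in WT replicate 1. *vcanb*, for the large proteoglycan versican, had 2631 and 1009 CPM, *sparc*, for a collagen-binding protein of bone and connective tissue, had 1488 and 676 CPM, and *postnb*, for periostin, had 1652 and 931 CPM. *epyc*, for epiphycan, a small proteoglycan of growing cartilage, had 1117 and 16.8 CPM. It led the family with the lowest median log2 ratio among those with at least 10 expressed members, the small leucine-rich proteoglycans, at -1.62. *loxl2a*, of the lysyl oxidases that crosslink collagen, went the other way, with 62.1 and 375 CPM.

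In all, 37 of the 173 expressed matrix genes (21.4%) were at least 4-fold higher in WT replicate 1, beside 2.33% of all expressed genes, and 2 (1.16%) were at least 4-fold higher in WT replicate 2, beside 4.16%. The 5 members of all classes with the most negative log2 ratios were matrix genes. After *col9a1b*, *col8a1a*, a short-chain collagen also listed here under notochord, had 396 and 4.59 CPM, and *matn3b*, a matrilin of cartilage, had 111 and 1.54 CPM. *epyc* and *chad*, for chondroadherin, another cartilage protein, followed, the latter with 153 and 2.45 CPM. In these bulk samples, fewer cells of a type and less RNA per cell cannot be told apart.

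Transcription factors made up 2.98% of the counts in WT replicate 1 and 5.38% in WT replicate 2, and 806 of 955 were expressed. Most were at low or moderate levels, with a median mean level of 16.2 CPM over the expressed ones, beside 12.8 CPM over all expressed genes. By mean CPM, 101 exceeded 100 CPM and 37 lay under 1 CPM.

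The 8 transcription factors with the most reads were each higher in WT replicate 2. Of these, 6 encode Jun, Fos and Atf proteins, which bind DNA in pairs as AP-1 and related complexes. *fosab* was the highest in WT replicate 1, with 856 CPM, and had 1511 CPM in WT replicate 2. *jun* had 653 and 2042 CPM. *junbb* had 11108 and 62659 counts, or 486 and 2847 CPM, and was the highest in WT replicate 2. The log2 ratios of the 6 genes, WT replicate 2 over WT replicate 1, ran from 0.82 for *fosab* to 5.01 for *fosl1a*.

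*fosl1a*, a Fos-related gene, had 74.0 and 2383 CPM and ranked 100 among transcription factors in WT replicate 1 and 2 in WT replicate 2. *atf3*, a gene induced by many kinds of cell stress, had 101 and 1481 CPM, and *junba* had 194 and 1200 CPM. *klf6a*, of the Krüppel-like zinc fingers, had 210 and 1283 CPM, and *egr1*, an immediate-early zinc finger gene, had 386 and 782 CPM. The list of the highest transcription factors is therefore largely that of WT replicate 2. Of the 8 highest in each library, 3 were shared, and of the 50 highest, 26.

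Over the whole family of 53 Jun, Fos, Atf, Creb and Maf genes, 48 were expressed. Of these, 41 were higher in WT replicate 2, beside 9372 of all 18289 expressed genes. The summed level of the family was 4020 and 16619 CPM, or 0.402% and 1.66% of all counts, and 16 members (33.3%) were at least 4-fold higher in WT replicate 2, beside 4.16% of all expressed genes. All other transcription factors together held 2.58% and 3.72% of the counts. Of their 758 expressed members, 60 (7.92%) were at least 4-fold higher in WT replicate 2 and 32 (4.22%) in WT replicate 1, beside 4.16% and 2.33% of all expressed genes.

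**Figure D2:**
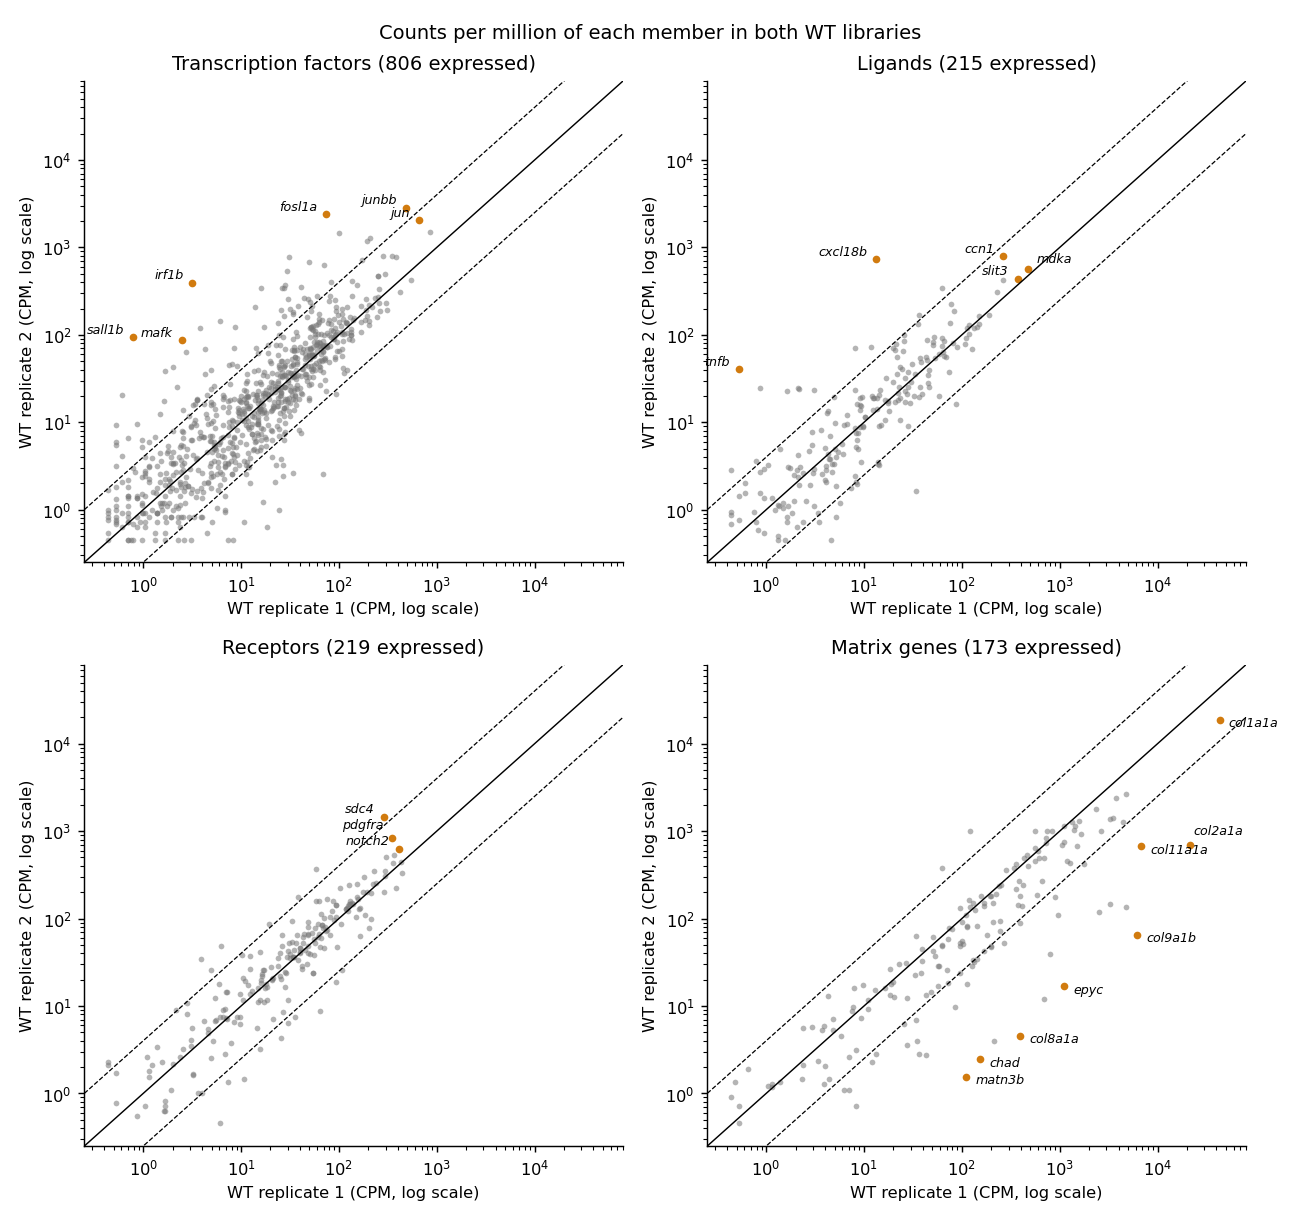
CPM of every expressed member in WT replicate 1 (horizontal, log scale) against WT replicate 2 (vertical, log scale), by class. The solid line marks equal values, dashed lines mark 4-fold, and orange points name the 3 highest members of each class and the 5 most different in each direction, which are *col9a1b*, *col8a1a*, *matn3b*, *epyc* and *chad* below the lines and *irf1b*, *sall1b*, *tnfb*, *cxcl18b* and *mafk* above.

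Families of immune and stress signalling held further genes that were higher in WT replicate 2. *irf1b*, an interferon regulatory factor, had 73 and 8666 counts, or 3.19 and 394 CPM, which is the largest log2 ratio of all expressed members at 6.95. *nfkb2*, which encodes a subunit of NF-kappa-B, had 26.2 and 340 CPM, and *stat3*, a carrier of cytokine signals to the nucleus, had 41.3 and 354 CPM. *ets2*, which led the Ets family, had 28.1 and 374 CPM. Of the 9 expressed Irf genes 4 were at least 4-fold higher in WT replicate 2, of the 13 Nfat and Rel genes 4, of the 17 Cebp and other bZIP genes 6 and of the 7 Egr and Wt1 genes 4, beside 4.16% of all expressed genes. Not every member went that way, since 4 of the 9 Irf genes were higher in WT replicate 1. Each of these families had 0 members that were at least 4-fold higher in WT replicate 1, beside 2.33% of all expressed genes.

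Among the other members with the largest positive log2 ratios were a further pair of transcription factors. *sall1b*, a zinc finger gene of the same family as *sall4*, had 18 and 2073 counts, or 0.787 and 94.2 CPM. *mafk*, for a small Maf protein that pairs with other bZIP factors, had 2.49 and 86.7 CPM. In WT replicate 1 *sall1b* lay near the minimum of 10 counts.

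All 48 Hox genes of the table were expressed, beside 84.4% of all transcription factors. The summed level of the Hox genes was 1336 and 1074 CPM. The highest was *hoxb3a*, a gene of anterior identity, with 167 and 108 CPM. Of the 48, 5 (10.4%) were at least 4-fold higher in WT replicate 1, beside 2.33% of all expressed genes, and 0 in WT replicate 2, beside 4.16%. *tbx15*, the T-box gene with the most reads and one with a part in mouse limb skeleton, had 202 and 128 CPM. *dlx3b* led the Dlx and Msx genes, which are active in fin epithelium and mesenchyme, with 71.2 and 53.03 CPM. All 12 expressed genes of that family were higher in WT replicate 1, beside 8917 of all 18289 expressed genes.

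*prrx1a* led the paired-like homeobox genes, of which 25 of 37 were expressed, beside 84.4% of all transcription factors. Of the 25, 0 were 4-fold apart, beside 2.33% and 4.16% of all expressed genes higher in WT replicates 1 and 2. *twist1a*, which led the mesodermal bHLH genes and marks undifferentiated mesenchyme, had 63.3 and 175 CPM. *gli2a*, a carrier of Hedgehog signals, had 117 and 139 CPM, and *rarga*, a retinoic acid receptor, had 190 and 191 CPM. *sox11a*, of a family with wide roles in progenitor cells, had 190 and 259 CPM, and *prdm1a*, the gene mutated in the study's *prdm1a-/-* libraries, had 50.2 and 237 CPM.

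Of the 101 transcription factors above 100 CPM, 36 lay within a log2 ratio of 0.5, a smaller share than the 1145 of 1873 genes of the whole table above that level. *id1*, an inhibitor of bHLH factors and a target of Bmp signalling, was the highest of them, with 545 and 429 CPM. *hif1al*, a hypoxia-inducible factor subunit gene, had 417 and 308 CPM, *zfhx3*, a large zinc finger homeobox gene, had 259 and 336 CPM, and *foxp4*, the highest forkhead gene, had 302 and 232 CPM. *tgif1*, which led the TALE homeobox genes, was not among them, with 154 and 369 CPM.

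**Figure D3:**
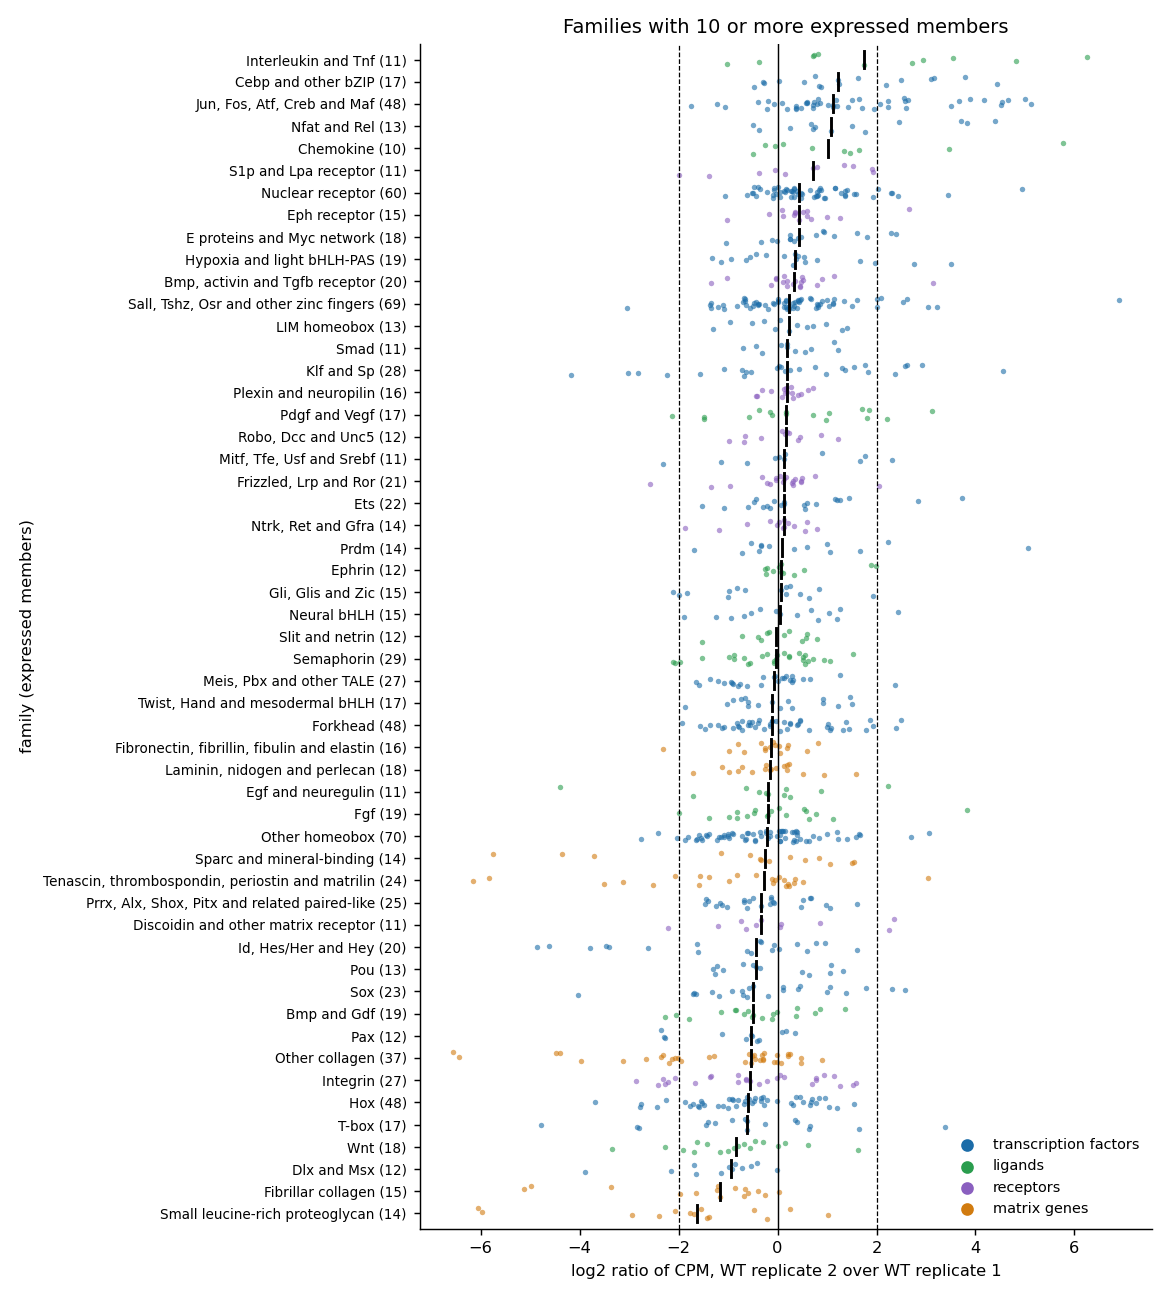
Log2 ratio of CPM, WT replicate 2 over WT replicate 1, of each expressed member (points) and the median (black bar) in families with at least 10 expressed members, coloured by class, with dashed lines at 4-fold. Furthest to the right lie the interleukin and Tnf (median 1.74), Cebp and other bZIP (median 1.23) and Jun, Fos, Atf, Creb and Maf (median 1.12) families. The fibrillar collagens (median -1.16) and small leucine-rich proteoglycans (median -1.62) lie to the left, and the receptor medians lie between -0.56 and 0.71.

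Ligands were the class with the fewest reads and the most absent members. They held 0.657% and 0.954% of the counts, 215 of 327 were expressed, and 30 were at 0 in both libraries. Families with secreted guidance and matrix-bound signals stood at the top. *ccn1*, a matrix-associated signal of the Ccn family, had 264 and 789 CPM, and its relative *ccn2a* had 266 and 423 CPM. *mdka*, for the growth factor midkine, had 470 and 571 CPM and was the highest ligand of WT replicate 1.

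Guidance cues followed. *slit3* (373 and 438 CPM) and *slit1a* (191 and 169 CPM) encode Slit proteins, which repel growing axons and migrating cells, and *sema3d* (231 and 311 CPM) encodes a secreted semaphorin. All 12 Slit and netrin genes and 29 of 30 semaphorins were expressed, beside 65.7% of all ligands. *igf2b*, an insulin-like growth factor gene, had 62.6 and 340 CPM. *cxcl18b*, a chemokine gene known in zebrafish for attracting neutrophils, had 307 and 16058 counts, or 13.4 and 730 CPM, and ranked 96 among ligands in WT replicate 1 and 2 in WT replicate 2.

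Few cytokine genes reached the minimum in both libraries. Of 31 interleukin and Tnf genes 11 (35.5%) were expressed, beside 65.7% of all ligands and 56.2% of the whole table. A further 8 reached 10 counts in only 1 library, 7 of them in WT replicate 2 and 1 in WT replicate 1. Over all ligands these numbers were 41, 23 and 18. Of the 11 expressed in both, 5 were at least 4-fold higher in WT replicate 2, beside 4.16% of all expressed genes. In WT replicate 1 the number was 0, beside 2.33%. *tnfb*, for a tumour necrosis factor, had 12 and 887 counts, or 0.525 and 40.3 CPM. Of 51 chemokine genes 10 were expressed and 19 were at 0 in both libraries. Another 8 reached 10 counts in only 1 library, 6 of them in WT replicate 2 and 2 in WT replicate 1. Over the class, 10 ligands (4.65%) were at least 4-fold higher in WT replicate 1, beside 2.33% of all expressed genes, and 13 (6.05%) in WT replicate 2, beside 4.16%.

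Of the 4 classes, receptors had the largest share of members within 2-fold, and it was below that of all expressed genes. They held 1.41% and 1.77% of the counts, 219 of 256 were expressed, and 73.5% of the expressed ones lay within 2-fold, against 68.4% of ligands, 61.0% of transcription factors, 56.6% of matrix genes and 77.3% of all expressed genes. Of the 219, 10 (4.57%) were at least 4-fold higher in WT replicate 1, beside 2.33% of all expressed genes, and 10 (4.57%) in WT replicate 2, beside 4.16%. Of the 8 highest receptors in each library 6 were shared, and of the 50 highest 42.

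*sdc4*, for a syndecan that binds matrix and growth factors at the cell surface, had the highest mean, with 286 and 1455 CPM. It ranked 12 among receptors in WT replicate 1 and 1 in WT replicate 2. *pdgfra*, a Pdgf receptor typical of mesenchyme, followed by mean with 353 and 836 CPM. The Notch receptor gene *notch2* ranked 3 in both libraries, with 407 and 625 CPM, and *notch3* had 446 and 334 CPM. *itgb1a*, for the beta subunit shared by most matrix-binding integrins, had 433 and 449 CPM. *sdc4* was thus far apart between the pools while *itgb1a* was nearly the same.

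Pathways were next read as pairs of ligand and receptor families. Over the whole classes, 65.7% of ligands and 85.5% of receptors were expressed. In the Fgf pathway, which drives fin outgrowth, 19 of 32 ligands were expressed, and the 32 summed to 165 and 166 CPM. Single ligands went apart in both directions, with *fgf8a* at 15.2 and 0.182 CPM and *fgf6a* at 1.62 and 23.1 CPM. All 9 receptor genes were expressed and summed to 1144 and 1359 CPM. *fgf10a*, the mesenchymal signal to the apical fold, was the highest ligand with 53.8 and 54.6 CPM. *fgfr2*, whose mammalian counterpart binds Fgf10, was the highest receptor with 353 and 431 CPM.

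Of 5 Hedgehog ligands 4 were expressed, and the 5 summed to 102 and 27.8 CPM. Among them *shha*, the signal of the posterior margin, had 2002 and 356 counts, or 87.6 and 16.2 CPM. *shha* is also a gene of the notochord, whose marker list was higher in WT replicate 1 too (2368 and 19.6 CPM), and the part of notochord cells in the level of *shha* was not tested. Of 9 genes for receptors and co-receptors 8 were expressed, with 1737 and 2072 CPM in all. The co-receptor genes *cdon* (364 and 532 CPM) and *boc* (300 and 500 CPM) were among the 8 highest receptors. The ligand sum was lower in WT replicate 2 and the receptor sum was not.

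In the Wnt pathway 18 of 25 ligands were expressed, led by *wnt11* with 109 and 79.6 CPM. Of the 18, 14 were higher in WT replicate 1, beside 8917 of all 18289 expressed genes. All 21 Frizzled, Lrp and Ror genes were expressed, led by *fzd7a* with 297 and 305 CPM. Among Bmp and Gdf ligands 19 of 27 were expressed, led by *bmp4*, a signal of the fin margin, with 65.6 and 86.0 CPM. All 20 receptors for Bmp, activin and Tgfb were expressed, led by *acvr1ba* with 103 and 226 CPM. *tgfb1a* led the Tgfb and activin ligands with 83.8 and 189 CPM.

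Most members of pairs that act by cell contact and of receptors of guidance cues were expressed. The shares of all ligands and all receptors were 65.7% and 85.5%. All 9 Notch ligand genes were expressed, led by *jag1b* with 134 and 120 CPM, and all 4 Notch receptors. Of 13 ephrins 12 were expressed, led by *efnb2a* with 114 and 120 CPM, and all 15 Eph receptors, led by *epha2a* with 57.7 and 366 CPM. All 16 plexins and neuropilins, which receive semaphorins, were expressed, led by *nrp2a* with 293 and 354 CPM, and *neo1a*, which led the netrin and Slit receptor genes, had 239 and 254 CPM.

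Among growth factor pairs, *pdgfab* led the Pdgf and Vegf ligands with 25.9 and 84.6 CPM, and *insrb* led the insulin and Igf receptors with 47.8 and 79.7 CPM. Of 26 receptors for chemokines 9 (34.6%) were expressed, beside 85.5% of all receptors. The highest of the 9 was *ackr3b*, which clears Cxcl12, with 148 and 105 CPM. *tnfrsf1a*, a receptor for tumour necrosis factor, had 19.3 and 87.2 CPM. All 8 expressed Tnf receptors were higher in WT replicate 2, beside 9372 of all 18289 expressed genes.

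Which tissues the sorted cells held was read from 38 lists of marker genes. For the counts of expressed genes in all these lists, the share over the whole table was 56.2%. Lists as unlike as ear (6 of 6), gut (5 of 5) and melanophores (9 of 9) were expressed in full. A full list at this minimum therefore does not by itself show that a tissue was present. All 18 fin mesenchyme genes were expressed, with a summed level of 1557 and 1944 CPM in WT replicates 1 and 2. The highest was *sall4*, and without it the sum was 1385 and 1218 CPM, higher in WT replicate 1. The lowest by mean were the distal Hox genes *hoxa13a* and *hoxd11a*, at 18.1 and 12.6 CPM and at 24.4 and 8.50 CPM, which are named after their values were seen. The apical fold list, of which 9 of 10 genes were expressed, summed to 8078 and 2754 CPM and lay mostly on the actinodins *and1* and *and2*, whose values are given above and which are also made by mesenchyme that has entered the fold. All 9 expressed genes were higher in WT replicate 1, beside 8917 of all 18289 expressed genes. Of the 9, 3 (33.3%) were at least 4-fold higher there, beside 2.33% of all expressed genes. These were *sp9* (26.7 and 3.27 CPM), *sp8b* (22.9 and 3.23 CPM) and *dlx6a* (11.4 and 2.54 CPM), named after their values were seen. *fgf8a*, the first marker of that list, had 348 and 4 counts, or 15.2 and 0.182 CPM, and so fell below the minimum in WT replicate 2.

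**Figure D4:**
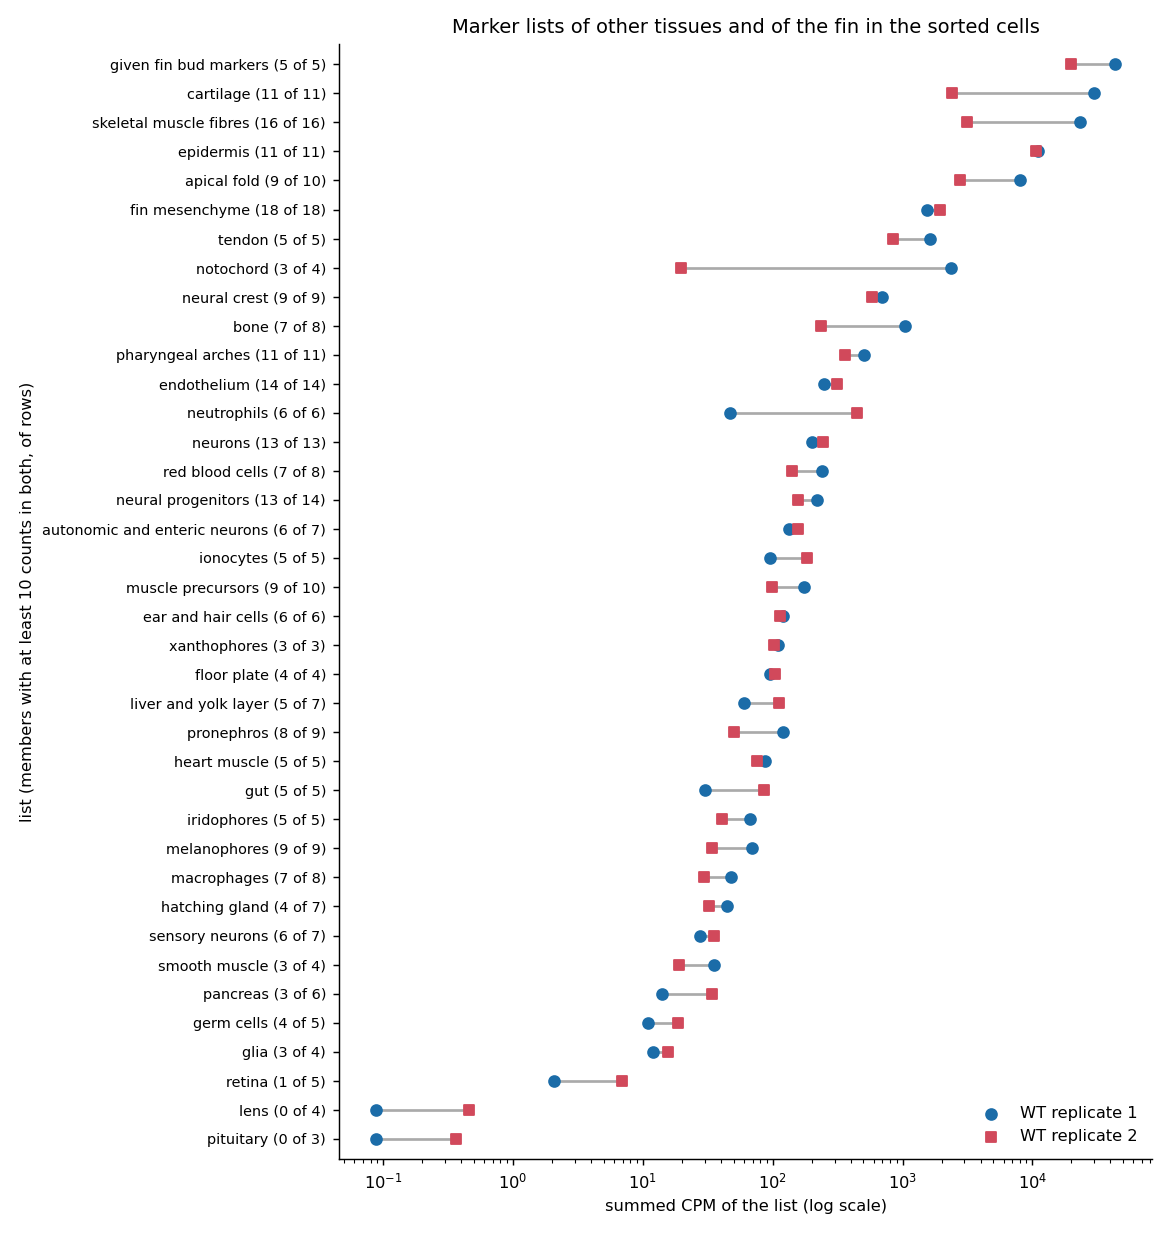
Summed CPM (log scale) of each of the 38 marker lists, with a blue circle for WT replicate 1 and a red square for WT replicate 2, ordered by the mean, and with the number of members at 10 or more counts in both libraries of the rows found. Fin mesenchyme (1557 and 1944) and epidermis (10975 and 10670) lie close together, while notochord (2368 and 19.6), cartilage (29748 and 2390) and skeletal muscle fibres (23378 and 3117) are far higher in WT replicate 1.

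Cartilage and bone genes were held unequally. The 11 cartilage genes were all expressed and summed to 29748 and 2390 CPM. Of these, 6 were at least 4-fold higher in WT replicate 1, beside 2.33% of all expressed genes. Not all took part, since 3 of the 11 were higher in WT replicate 2. These were *sox9a* (135 and 280 CPM), *acana* (95.4 and 131 CPM) and *hapln1a* (748 and 997 CPM), named after their values were seen. Without *col2a1a*, the highest gene of the list, the sum was 8170 and 1703 CPM. *sp7*, the osteoblast factor that headed the bone list, had 33.4 and 20.4 CPM, and *col10a1a*, for a collagen of bone and hypertrophic cartilage, had 891 and 179 CPM. *scxa*, a tendon factor, had 6.56 and 18.5 CPM, and *tgfbi*, the highest gene of the tendon list, had 1279 and 431 CPM.

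Muscle fibre genes were detected in both pools and were far more abundant in the first. All 16 rows were expressed, and their sum was 23378 and 3117 CPM. Of the 16, 13 were at least 4-fold higher in WT replicate 1, beside 2.33% of all expressed genes. *actc1b*, an actin of striated muscle, had 4460 and 420 CPM. *myod1*, which headed the muscle precursor list, had 11.4 and 5.63 CPM, and *myog*, for the factor myogenin, which starts differentiation, had 49.6 and 26.5 CPM. The heart list summed to 86.8 and 75.6 CPM, with 29.8 and 18.2 CPM for the cardiac light chain gene *myl7* and 26.5 and 22.5 CPM for *nppa*, for a natriuretic peptide. *myh11a*, a smooth muscle myosin gene, had 16.71 and 10.22 CPM.

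Notochord genes were far higher in WT replicate 1, although 3 of the 4 reached the minimum in both libraries. *tbxta*, the T-box gene that defines the notochord, had 1589 and 56 counts, or 69.5 and 2.54 CPM, and *cmn*, for the matrix protein calymmin of the notochord sheath, had 1903 and 12.3 CPM. *noto*, on the same list, had 0 and 4 counts. *col2a1a* is made by notochord as well as by cartilage, and what each gave to its level was not tested.

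Epidermal genes summed to 10975 and 10670 CPM, of which *krt4* made up most, and without it the sum was 3941 and 2739 CPM. The 11 members went apart in both directions, with 4 higher in WT replicate 1 and 7 in WT replicate 2. *tp63*, which marks the basal layer, had 93.9 and 20.9 CPM. *krt5*, a keratin of that layer, had 2279 and 738 CPM, and *epcam*, for an epithelial adhesion protein, had 277 and 686 CPM, both named after their values were seen. All 5 ionocyte genes were expressed, with 1.14 and 3.09 CPM for *foxi3a* and 52.7 and 136 CPM for *trpv6*. *he1.1*, a hatching enzyme gene, had 25.2 and 23.4 CPM.

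Endothelial, neural crest and pigment cell genes were detected in both pools. The 14 endothelial genes summed to 248 and 314 CPM, and *kdrl*, a Vegf receptor gene of blood vessels, had 68.9 and 77.8 CPM. The crest factor gene *sox10* had 36.3 and 39.3 CPM, and *sox9b*, the highest of that list and one also active in mesenchyme, had 244 and 162 CPM. *mitfa*, the melanophore factor, had 2.27 and 0.454 CPM, and *pmela*, the highest of its list, had 20.6 and 10.3 CPM. *gch2*, which headed the xanthophore list, had 70.2 and 76.7 CPM, and *pnp4a*, an iridophore enzyme, had 13.7 and 8.22 CPM. *gpnmb*, the highest iridophore gene here, had 28.3 and 17.1 CPM.

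Blood cell genes were also detected in both pools, and the red blood cell list summed to 240 and 140 CPM. *hbae3*, an embryonic globin gene, had 148 and 79.0 CPM, and *hbae1.1*, the first of that list, had 2.93 and 1.499 CPM. *mpeg1.1*, the defining macrophage gene, had 14 and 26 counts, or 0.612 and 1.18 CPM, and *mpx*, the defining neutrophil gene, had 13.8 and 6.41 CPM. The macrophage list summed to 48.0 and 29.6 CPM, with *lcp1* the highest at 20.99 and 8.088 CPM. The neutrophil list summed to 46.8 and 447 CPM. The higher sum was that of *mmp9*, a gelatinase gene with 13.9 and 308 CPM, and of *mmp13a*, a collagenase gene found under 2 identifiers with 0.525 and 18.7 CPM and with 3.15 and 110 CPM. The other 3 of 6 genes, *mpx* among them, were higher in WT replicate 1. *mmp9* and *mmp13a* are also made by other cells. The part of blood cells in the higher cytokine and chemokine genes of WT replicate 2 was not tested.

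Genes of the nervous system were detected in both pools, some of them at levels in CPM near that of *tbx5a* (60.1 and 78.5 CPM). *elavl3*, a marker of young neurons, had 76.0 and 114 CPM, *sox2*, of neural progenitors, had 27.8 and 14.6 CPM, *gfap*, of radial glia, had 80.1 and 33.9 CPM, and *isl2b*, of sensory neurons, had 11.9 and 19.4 CPM. *phox2bb*, a factor of autonomic and enteric neurons, had 26.5 and 37.99 CPM, with *ret*, the Gdnf receptor of enteric precursors, at 66.3 and 59.3 CPM. *mbpa*, for myelin basic protein, had 2 counts in each library, and *erbb3b*, a neuregulin receptor of Schwann cell precursors, had 9.67 and 13.9 CPM. *shhb*, of the floor plate, had 5.07 and 4.95 CPM, and *spon1b*, for a spondin, had 81.9 and 93.4 CPM.

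Genes of the head and pharyngeal arches, which were cut away before the sort for EGFP, were unequally represented. The parts of the dissection and of the sort in these levels were not tested. All 11 genes of the pharyngeal arch list were expressed, with sums of 504 and 363 CPM. *dlx2a*, its first marker, had 31.0 and 18.8 CPM, and *jag1b*, its highest, is also a Notch ligand of other tissues. What share of these reads came from arch cells was not tested. Genes of the lens and pituitary were at or near 0. The lens list summed to 0.0875 and 0.454 CPM, with *crybb1* at 0 and 4 counts, and the pituitary list to 0.0875 and 0.364 CPM, with *pomca* at 0 and 2 counts. Of the 5 retina genes 1 was expressed, *rcvrn3* with 31 and 38 counts, and a further 3 reached 10 counts in WT replicate 2 only, *vsx1* among them with 4 and 52 counts. All 6 genes of the ear list were expressed, with a sum of 119.9 and 113.0 CPM. *stm*, an ear gene whose name comes from starmaker, had 66.3 and 67.0 CPM, and *atoh1a*, the hair cell factor, had 2.62 and 1.64 CPM.

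Genes of trunk organs summed to 121 and 49.98 CPM for the pronephros list, 30.4 and 86.3 CPM for gut, 59.8 and 113 CPM for liver and yolk layer and 14.1 and 33.9 CPM for pancreas. *cdh17*, a pronephros gene, had 54.5 and 9.95 CPM, *fabp2*, of the gut, had 2.36 and 8.91 CPM, *foxa3*, of endoderm, had 14.7 and 19.5 CPM, and *tfa*, for transferrin, had 35.7 and 46.3 CPM. *fabp10a*, the defining liver gene, had 6 and 4 counts, *ins*, for insulin, had 24 and 2 counts, *gcga*, for glucagon, had 3.76 and 21.5 CPM, and *ddx4*, of germ cells, had 7.09 and 12.9 CPM.

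Members near the minimum were few beside the whole. The lower of the 2 counts was exactly 10 in 31 members, *angpt2a* and *aplnr2* among them. It was exactly 9 in 5 members, *gfi1b* and *itgb7* among them, and exactly 8 in 30 members, *ccn6* and *cdx4* among them. Of the 1725 members, 139 reached 10 counts in only 1 library, 63 of them in WT replicate 1 and 76 in WT replicate 2. Another 173 stayed below 10 counts in both, and 67 of these were at 0 in both.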

How the data were processed

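Total RNA of sorted EGFP-positive cells was made into stranded paired-end libraries. Per the labels and methods, the authors trimmed reads, aligned them to danRer11 with STAR 2.7.10b and deposited raw counts per gene from featureCounts, in which no normalization had been made. Which gene models and counting options were used is not given in the sources used here. This table also holds the authors' comparison columns (log2 fold changes and p-values from DESeq2), which were not used, and 2 count columns of other samples, which were left out because no genotype was compared.

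Counts of both WT libraries were divided by the library total on genes and given as CPM. Genes with at least 10 counts in both libraries were called expressed, and the log2 ratio of CPM was taken as WT replicate 2 over WT replicate 1. A difference of 4-fold was counted as a description, since 1 library stood on each side. Of the 1725 members, each was found by its symbol. In all, 80 genes of the table had no symbol, and 561 symbols stood on more than 1 identifier, which were kept apart. From the marker lists, 2 genes had no entry under the symbol used.

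Named genes were the 8 members of each class with the highest mean CPM, the highest of each family described, the 5 with the largest log2 ratio in each direction, the first and the highest gene of each marker list, the 10 highest genes of the table and the given markers. Any other gene was named after its values were seen. The members, families and lists were chosen with earlier results of these data known.

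Alternatives were minimums of 1, 5 and 20 counts, no minimum with a pseudocount of 1, scaling by TMM or RLE factors, each library alone, shares without the 10 highest genes and list sums without the highest gene. Shares without members at least 4-fold apart were added after seeing the data. Work was done in Python 3.11.15 (pandas 2.3.3, numpy 2.4.6, scipy 1.17.1, matplotlib 3.10.9) and R 4.3.3 with edgeR 4.0.16, used for scaling factors only. The calculations were tested on simulated data.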

Additional observations from a re-analysis of the deposited data

How the results depend on the processing

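With no minimum and a pseudocount of 1, 1235 genes were at least 4-fold higher in WT replicate 1 and 2325 in WT replicate 2, against 427 and 761, since genes with few counts then entered. With a minimum of 20 the counts were 317 and 601, with TMM scaling 450 and 731, and with RLE scaling 454 and 722. Expressed transcription factors, ligands, receptors and matrix genes numbered 889, 264, 234 and 182 at a minimum of 1 and 729, 191, 208 and 167 at a minimum of 20, all within 1.5 times the counts reported. With each library alone they ranged from 842 to 849, from 233 to 238, from 225 to 226, and 176 in both. The 8 highest of each class kept all members under TMM and RLE scaling, except that 1 of the matrix genes was replaced. None of the 38 list sums changed direction under TMM or RLE scaling. Without the highest gene, 5 list sums did (values in WT replicates 1 and 2). They were those of the given markers (623 and 1124 CPM), fin mesenchyme, tendon (345 and 410 CPM), glia and floor plate. Without that gene, 24 of the 38 list sums moved in their mean by at least the standard deviation between the libraries. Without members at least 4-fold apart, transcription factors held 2.68% and 3.38% of the counts and matrix genes 10.1% and 5.65%. Ranking per length of coding sequence was not run. No paired analysis was possible because no groups were compared. With 2 pools, the spread between them cannot be assigned to embryos, sorting or library, and levels near 10 counts are the least precise.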
